A study of Mus musculus with 4 samples.

Results

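A set of 8 genes that mark oligodendrocyte precursors was followed in RNA sequencing of mouse embryonic brain: the transcription factor genes Olig1, Olig2 and Nkx2-2, the receptor genes Pdgfra and Gpr17, the membrane proteoglycan gene Cspg4, and Lhfpl3 and Bcas1. They were taken by gene name from a table of 20421 genes, and all 8 had a row in it. The groups were C57BL/6 embryos at embryonic day 15, labelled WT or FOXM1f/+;Nestin-Cre. The series' title names the human FOXM1 gene; FOXM1 protein switches on genes for passage through mitosis. Nestin-Cre is a Cre recombinase under nestin control, which is active in neural progenitors and so in the cells from which neurons and macroglia descend. Of the 4 samples listed, 2 are in each group, but the table holds 1 column of reads per genotype. The columns name a genotype and a code, F1 for the transgenic and C2 for the WT column, and neither code matches a sample title. No source used here says if a column stands for 1 embryo or for several pooled ones. The titles of the WT samples name nestin for one and foxm1 for the other, so the WT column may come from an animal with either allele alone.

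Oligodendrocyte precursors arise from ventral progenitors of the neural tube and forebrain. Sonic hedgehog signalling switches on Olig2, Olig1 and Nkx2-2 there. The cells then put on the receptor for platelet-derived growth factor, Pdgfra, which carries the signal for their division and survival, and Cspg4, known as NG2. Sox10 follows and holds the lineage, while Gpr17 and Bcas1 are known from cells on the way to forming myelin. None of these genes is limited to the lineage. Olig1 and Olig2 are also read in ventral progenitors of interneurons and motor neurons, Pdgfra in meningeal fibroblasts, and Cspg4 in pericytes.

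The transgenic column held 17856653 reads and the WT column 17543705. Values below are reads scaled to the library total (CPM), as the authors deposited them, and ratios are transgenic over WT. With 1 column per genotype there was no replicate check and no test. Each interval is a 95% exact interval that covers counting error only, and without molecular identifiers the reads are not independent molecules. The libraries also differed in sex-linked RNA (Xist with 9628 transgenic and 5 WT reads, and Eif2s3y with 0 and 1266) and in choroid plexus RNA (Ttr 177 and 11255 reads). Mouse Foxm1 had 1289 and 1139 reads, a ratio of 1.11 (1.03 to 1.21); reads of a human gene would reach it only where the sequences are alike. The genotype therefore cannot be told apart from sex content, choroid plexus content and differences between embryos.

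The 2 Olig genes are the close relatives among the members, and they lie next to each other on chromosome 16. The table places Olig2 at chr16:91225550-91228677 and Olig1 at chr16:91269772-91271933, both on the plus strand (GRCm38 coordinates), 41.1 kb apart. A stretch of 120 bases from each GENCODE M21 coding sequence is shown because it holds their longest identical run and so bears on whether reads of one could be counted for the other. It starts at base 241 of 780 in Olig1 and base 283 of 969 in Olig2, counted from the start codon. Part of this stretch belongs to the basic helix-loop-helix region, with which these factors bind DNA. Capitals mark the bases that are the same in both.
Olig1: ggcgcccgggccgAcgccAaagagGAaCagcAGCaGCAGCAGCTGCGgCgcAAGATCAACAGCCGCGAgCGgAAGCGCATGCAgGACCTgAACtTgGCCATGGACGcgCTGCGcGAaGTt
Olig2: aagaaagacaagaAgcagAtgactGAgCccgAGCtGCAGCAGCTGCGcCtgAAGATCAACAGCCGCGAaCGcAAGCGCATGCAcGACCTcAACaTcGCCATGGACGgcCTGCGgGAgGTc
Of the 120 bases, 79 (65.8%) were the same. The longest unbroken identical run in the coding sequences was 17 bases, starting at base 292 of Olig1 and base 334 of Olig2. How the authors counted reads that map to more than 1 place is not stated in the sources used here.

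Among the transcription factors, Olig2 had nearly the same level in both libraries, Olig1 was lower in the transgenic one, and Nkx2-2 was too rare to compare. Olig2, the factor without which oligodendrocyte precursors do not form in most of the central nervous system, had 587 reads (32.9 CPM) in the transgenic and 591 reads (33.7 CPM) in the WT column. That is a ratio of 0.976 (0.869 to 1.10). Olig1, its neighbour, which acts later in maturation of the lineage, had 311 reads (17.4 CPM) against 410 (23.4 CPM). Its ratio was 0.745 (0.641 to 0.866), so the transgenic library lay below the WT library by more than counting error. The neighbours differed from each other as well: the ratio of Olig1 divided by that of Olig2 was 0.764 (0.631 to 0.924). Nkx2-2, a homeodomain factor that promotes differentiation of the precursors, had 4 reads (0.224 CPM) against 6 (0.342 CPM), a ratio of 0.655 (0.136 to 2.76). A difference of that size was not detectable at this depth.

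The receptor genes were the members with the lowest ratios. Pdgfra (chr5:75152292-75198215, plus strand) had 87 transgenic reads (4.87 CPM) against 195 WT reads (11.1 CPM). The transgenic value was 43.8% (33.7 to 56.7) of the WT value. Gpr17, a G protein-coupled receptor of cells leaving the precursor state, had 37 reads (2.07 CPM) against 82 (4.67 CPM), or 44.3% (29.2 to 66.1). Both upper limits lie well below equality, and both intervals also include ratios above and below 0.5. Between these genes the ratios differed by less than counting error, at 0.989 (0.609 to 1.62) for Pdgfra relative to Gpr17. In bulk tissue, fewer cells of a type and less RNA per cell cannot be told apart.

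The other members had intervals that span 1. Cspg4, the NG2 proteoglycan at the cell surface, had 163 reads (9.13 CPM) against 185 (10.5 CPM), a ratio of 0.866 (0.697 to 1.07). Lhfpl3, a membrane protein gene that is enriched in precursors, had 116 reads (6.50 CPM) against 142 (8.09 CPM), a ratio of 0.803 (0.622 to 1.03). Bcas1, known from newly forming oligodendrocytes, had 33 reads (1.85 CPM) against 29 (1.65 CPM), a ratio of 1.12 (0.658 to 1.91). Bcas1 was the 1 member with a ratio above 1, and at this depth its interval also holds a value as low as that of Olig1. These spans do not show that the levels were equal.

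**Figure D1:**
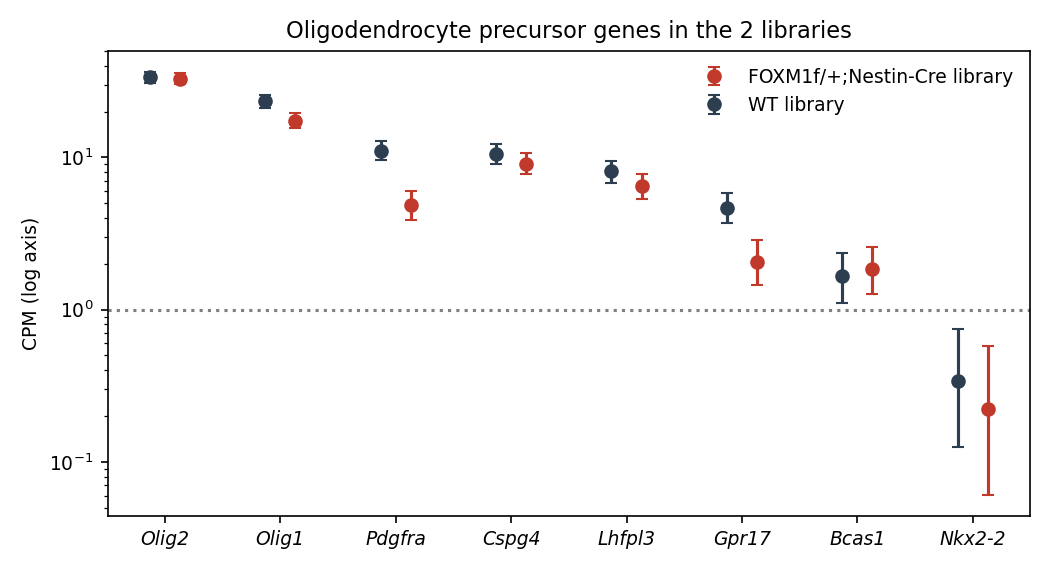
CPM of each member (vertical log axis) in the WT library (dark) and the FOXM1f/+;Nestin-Cre library (red), with 95% exact counting intervals as bars and a dotted line at 1 CPM. Olig2 points overlap at 33.7 and 32.9 CPM, while the bars of Pdgfra and of Gpr17 do not meet.

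**Figure D2:**
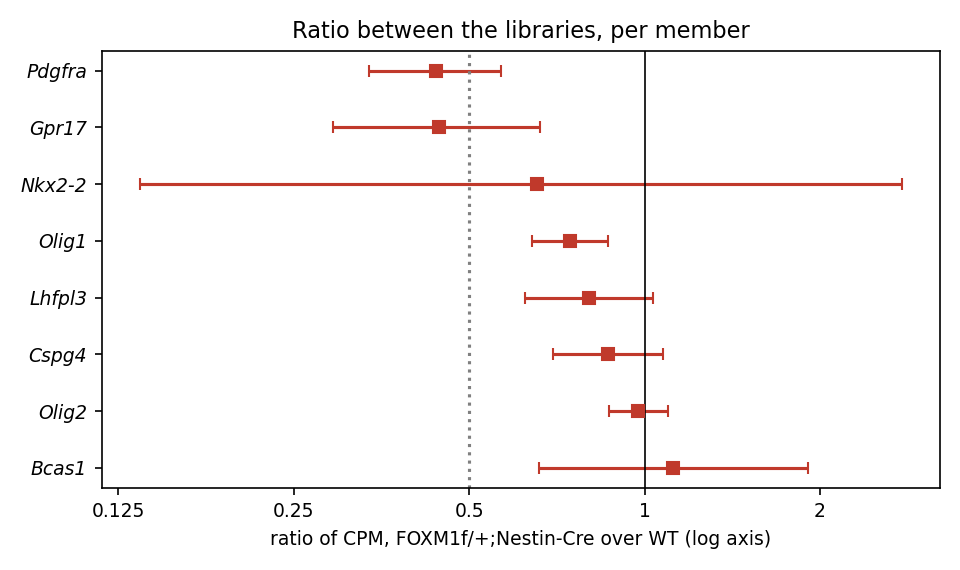
Ratio of CPM, transgenic over WT (horizontal log axis), per member with its 95% exact counting interval; the solid line is a ratio of 1 and the dotted line 0.5. The points run from 0.438 for Pdgfra to 1.12 for Bcas1, and the intervals of Pdgfra, Gpr17 and Olig1 lie wholly below 1.

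Of the 8 members, 7 had a mean of at least 1 CPM over both libraries, and Nkx2-2 did not. At least 2-fold lower were 2 of the 7, against 1.83% of the 14557 genes that reach this level; at 1.5-fold it was again 2 of 7, against 5.23%. No member was at least 2-fold higher, against 0.522% of genes. Many of the 2-fold genes were of low expression: among genes with a mean of 1 to 10 CPM, a range set after the values were seen, 5.57% were at least 2-fold lower, and there it was 2 of 5 members. Intervals wholly below 1 were found for 3 of 7 members, against 19.2% of genes, and intervals above 1 for none, against 16.5%. Ratios below 1 were found for 6 of 7, against 51.6%. The median log2 ratio of the 7 was -0.32, with a range from -1.19 to 0.16, and that of all 14557 genes was -0.01. All 8 members together had a median of -0.37. Because the members were chosen with these data known, such shares are descriptions. In the authors' deposited table, 2 of the 8 members, Pdgfra and Gpr17, were marked as significant and down, against 6.31% of all its genes.

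Placed among all 14557 genes, the members spread widely. Pdgfra was the 182nd lowest log2 ratio and Gpr17 the 186th, so that 1.25% and 1.28% of genes were at or below them. At or below Olig1 were 8.61% of genes, and at or below Lhfpl3 and Cspg4 12.6% and 20.0%. Olig2, with 44.7% of genes at or below it, lay near the middle, and Bcas1, with 79.8%, in the upper part.

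**Figure D3:**
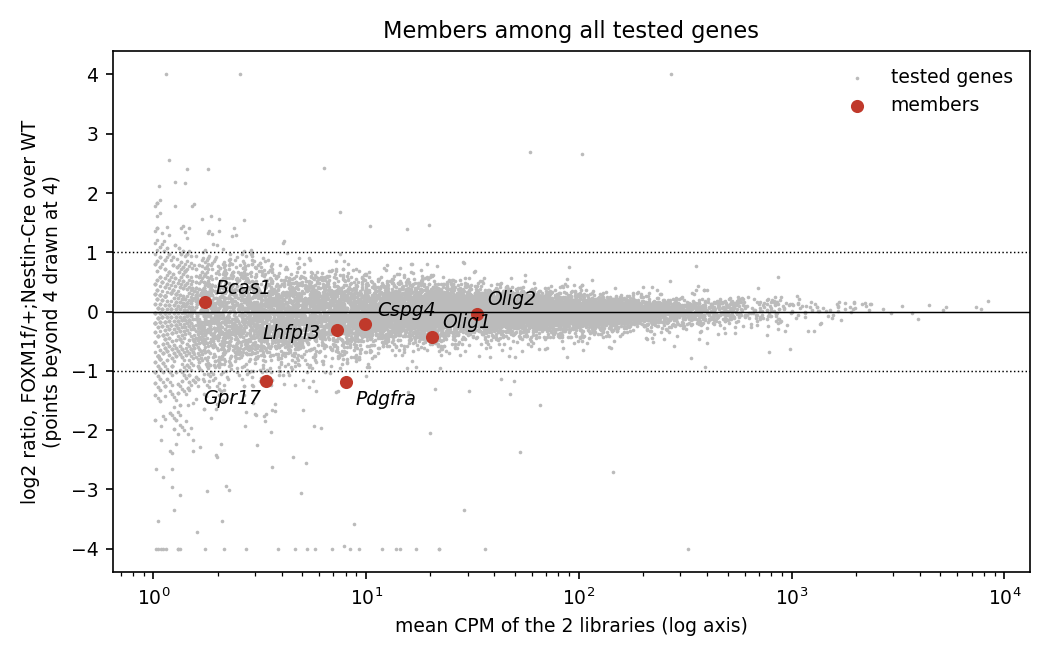
Log2 ratio, transgenic over WT (vertical axis, values beyond 4 drawn at 4), against mean CPM (horizontal log axis) for the 14557 genes that average 1 CPM or more (grey) and the 7 members among them (red); dotted lines mark 2-fold. Pdgfra and Gpr17 lie below the lower dotted line, and Olig2 lies at -0.04.

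Set against one another in all 28 pairs, the ratios of 11 pairs differed by more than counting error. Of those, 5 set Pdgfra apart from Olig1, Lhfpl3, Cspg4, Olig2 and Bcas1, and 5 set Gpr17 apart from the same genes. The remaining pair was Olig1 and Olig2. Pdgfra relative to Olig2 stood at 0.449 (0.336 to 0.597), and Pdgfra relative to Cspg4 at 0.507 (0.359 to 0.713). Gpr17 relative to Olig2 stood at 0.455 (0.295 to 0.691). These intervals are not adjusted for the number of pairs. They say that the members did not share 1 common ratio in these libraries, and that the surface receptors stood lower against WT than the factor that specifies the lineage. Pairs with Nkx2-2 were too thin to separate from any other member.

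Levels between genes were compared per length, as CPM divided by the kilobases of merged exon (RPKM). In the WT library Olig2 was highest at 13.3 RPKM (12.3 to 14.4) and Olig1 second at 10.8 (9.79 to 11.9). Lhfpl3 followed at 2.52 (2.12 to 2.97) and Pdgfra at 1.11 (0.959 to 1.28). The next neighbours, Gpr17 at 0.900 (0.715 to 1.12) and Cspg4 at 0.884 (0.761 to 1.02), overlapped in their intervals with each other and with Pdgfra. Bcas1 had 0.438 RPKM (0.293 to 0.629) and Nkx2-2 0.119 (0.0437 to 0.259). In the transgenic library the first 3 places were the same, with Olig2 at 12.99 (11.96 to 14.1), Olig1 at 8.05 (7.18 to 9.001) and Lhfpl3 at 2.02 (1.67 to 2.43). Behind them the order was Cspg4 at 0.765 (0.652 to 0.892), Bcas1 at 0.490 (0.337 to 0.687), Pdgfra at 0.486 (0.389 to 0.599), Gpr17 at 0.399 (0.281 to 0.550) and Nkx2-2 at 0.0779 (0.0212 to 0.200). Pdgfra thus lay at place 4 of 8 in the WT and at place 6 in the transgenic library, although its transgenic interval overlaps those of Bcas1 and Gpr17. Olig2 RNA per length was 12.01 times that of Pdgfra in the WT library and 26.7 times in the transgenic one. The ratio of Olig2 to Olig1 went from 1.23 to 1.61, and that of Pdgfra to Gpr17 was 1.23 and 1.22. Summed over the 8 members, reads were 1338 (74.9 CPM) and 1640 (93.5 CPM), a ratio of 0.802 (0.745 to 0.862); Olig2 alone gave 43.9% and 36.0% of these reads.

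The gene models can also bear on the counts, since no source used here states the strand setting. Exons of Gpr17 share 188 bases with Lims2, a coding gene of the other strand with 18 transgenic and 17 WT reads. Lhfpl3 shares 567 bases with A930003O13Rik on the other strand, which had 11 and 8 reads. Exons of Pdgfra overlap by 456 bases with the antisense gene Gm42802, and those of Olig1 by 157 bases with Gm15966, neither of which has a row in the table. Antisense overlaps also included 440 bases of Bcas1 with Bcas1os1 and 278 bases of Nkx2-2 with Nkx2-2os, again without a row. The reads of Lims2 stand beside 37 transgenic and 82 WT reads of Gpr17 itself. A partner's count does not show how many reads fell in the shared bases, and the effect of the overlaps was not tested. Of the annotated neighbours of Pdgfra within 100 kb, 2 had rows. Gsx2, a ventral progenitor factor 74.4 kb away, had 233 transgenic and 183 WT reads, and the noncoding Gm19583 7 and 7.

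Upstream sequence was read from RefSeq promoters for 5 of the 8 members (GRCm38.p6). The 250 bases before the start of Pdgfra, the member of lowest ratio, are shown beside those of Lhfpl3, whose interval reached 1. Both are on the plus strand, Pdgfra at chr5:75152001-75152250 and Lhfpl3 at chr5:22745804-22746053. Capitals mark matches, on either strand, to the E-box CANNTG of basic helix-loop-helix factors, the SOX motif ACAANG, the forkhead motif GTAAACA and the cell cycle homology region TTTGAA.
Pdgfra: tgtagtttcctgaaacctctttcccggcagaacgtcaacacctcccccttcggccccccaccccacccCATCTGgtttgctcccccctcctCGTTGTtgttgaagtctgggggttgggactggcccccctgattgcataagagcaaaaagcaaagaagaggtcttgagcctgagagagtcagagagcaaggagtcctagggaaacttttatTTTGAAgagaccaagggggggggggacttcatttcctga
Lhfpl3: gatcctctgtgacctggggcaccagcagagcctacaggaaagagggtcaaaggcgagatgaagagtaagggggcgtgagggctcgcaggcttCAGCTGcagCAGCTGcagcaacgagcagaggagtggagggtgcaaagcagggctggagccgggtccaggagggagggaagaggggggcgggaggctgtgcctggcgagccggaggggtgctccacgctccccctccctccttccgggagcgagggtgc
Pdgfra held 1 E-box, 1 SOX match and 1 TTTGAA, starting 182, 159 and 39 bases before the start. Lhfpl3 held 2 E-boxes, at 158 and 149 bases, and no other match. In the same window Nkx2-2 had 3 E-boxes, Olig2 1 SOX match and no E-box, and Cspg4 none of the motifs. None of these 5 windows held GTAAACA, and the windows of Olig1, Gpr17 and Bcas1 were not searched. No promoter entry was found under the names Olig1 and Bcas1, while Gpr17 was left out of the search. Of 32851 RefSeq promoter windows of this length, 66.2% held an E-box, 36.3% the SOX motif, 3.17% the forkhead motif and 16.0% TTTGAA. A match is a run of letters and does not show binding, and no overlap between the 4 motifs occurred in the windows shown.

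Other genes of the lineage were described by the same measures. Of 14 further precursor markers, 13 had a row and 12 had a mean of at least 1 CPM; 2 intervals lay below 1, 1 above and 9 spanned 1, with a median log2 ratio of -0.10. Tnr, a matrix glycoprotein of the tenascin family, had 258 reads against 384, a ratio of 0.660 (0.562 to 0.775). Cacng4, an auxiliary subunit of glutamate receptors, had 4361 against 4539 (0.944, 0.905 to 0.984), and Cdo1, a cysteine dioxygenase, 1044 against 927 (1.11, 1.01 to 1.21). Cacng4 and Cdo1 were far nearer to equality than Pdgfra. Several genes of this list, such as Ptprz1, are also read in radial glia.

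Of 14 transcription factors and chromatin regulators of the lineage, 11 passed the minimum, with 7 intervals above 1, 1 below and 3 spanning it, and a median of 0.17. The 1 below was Sox10, the factor that maintains the lineage after Olig2, with 41 transgenic reads (2.30 CPM) against 80 WT reads (4.56 CPM). Its ratio of 0.504 (0.337 to 0.743) was close to those of Pdgfra and Gpr17. Sox10 is also a gene of neural crest cells; of the markers of those cells, Foxd3, Cdh19 and Egr2 had no row, Erbb3 and Dhh had at most 5 reads in either library, and Ngfr had 319 transgenic and 312 WT reads. Sox9, a factor of progenitors and glia that acts before Sox10, was higher, with 1203 against 770 reads (1.54, 1.40 to 1.68). The chromatin remodeller Chd7 (1.27, 1.17 to 1.39) and the gliogenic factor Nfia (1.12, 1.08 to 1.17) were higher too.

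Genes that hold back differentiation of the lineage were higher in 4 of 6 cases by the interval, with 1 below and 1 spanning 1, and a median of 0.22. Hes5, a Notch effector, had 403 against 266 reads (1.49, 1.27 to 1.74). Id4 stood at 1.26 (1.20 to 1.32), Sox6 at 1.18 (1.08 to 1.28) and Sox5 at 1.15 (1.09 to 1.22). All 6 are also genes of progenitors or neurons. The radial glia list, by the same measures, had 6 of 8 intervals above 1 and none below, with a median of 0.23, and the neuron list 7 of 8 below and none above, with a median of -0.16. Their part in the members' values was not tested.

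Of the signals that feed the lineage, the hedgehog list had 7 of 10 intervals above 1 and none below, with a median of 0.22. Shh, the ligand, had 73 against 46 reads (1.56, 1.06 to 2.31), a gene named here after its values were seen. Cdon and Gas1, co-receptors, stood at 1.28 (1.20 to 1.36) and 1.22 (1.13 to 1.32), and Gli2 and Smo at 1.22 (1.09 to 1.37) and 1.12 (1.03 to 1.20). The PDGF list had 1 of 4 intervals below 1 and 3 spanning it, with a median of -0.18. In it Pdgfb had 211 against 260 reads (0.797, 0.662 to 0.960). Pdgfa, the main ligand of Pdgfra in the brain, also named after its values were seen, had 192 against 198 reads, 0.953 (0.777 to 1.17).

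Myelin and mature oligodendrocyte genes had few reads. Of 14 listed, 9 had a row and 7 passed, with 2 intervals below 1, 5 spanning it and a median of -0.03; over all 9, without an expression minimum, the median was -0.19. Several of the spanning intervals were wide, such as that of Ermn, 1.08 (0.639 to 1.84), a gene named here after its values were seen. Cldn11, a tight junction protein of myelin and of other tissues, had 11 against 26 reads (0.416, 0.185 to 0.871), and Mog, a myelin surface protein, 160 against 214 (0.735, 0.595 to 0.906). The table's own gene ontology terms gave medians near that of all genes: -0.03 for 25 genes of oligodendrocyte differentiation, 0.04 for 25 of oligodendrocyte development and -0.03 for 34 of myelination. In the first of these, which holds Olig1 and Olig2, 9 intervals lay above 1 and 6 below.

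Markers of other cells that read member genes differed as well. Meningeal fibroblast markers, cells that also make Pdgfra, had rows for all 9, with a summed transgenic level of 19.2 CPM against 31.9 CPM in WT, and none was at 0. Of the 5 that passed, 3 intervals lay below 1, 1 above and 1 spanned it. The collagens Col1a1 and Col1a2 had 31 against 96 reads (0.317, 0.205 to 0.480) and 74 against 185 (0.393, 0.296 to 0.517), and Col3a1 93 against 126. Foxc1, a forkhead factor of the meninges, had 78 against 47 reads (1.63, 1.12 to 2.39). The part of fibroblast RNA in the Pdgfra value was not tested. Pericyte markers, cells that also make Cspg4, summed to 146.7 and 152.2 CPM over 9 genes, with 2 of 7 intervals below 1 and 1 above; Abcc9 stood at 0.710 (0.586 to 0.860) and Notch3 at 1.30 (1.17 to 1.43). Ventral forebrain factors, of the region that also reads Olig1 and Olig2, summed to 988 and 963 CPM over 10 genes, with 5 intervals above 1 and 1 below. In it Dlx2 stood at 1.13 (1.07 to 1.18), Nkx2-1 at 1.12 (1.04 to 1.21) and Lhx6, of migrating interneurons, at 0.895 (0.843 to 0.9503). Of 8 ventral midline and hypothalamic genes 2 had a row, with 1 interval below 1 and 1 spanning it. Lmx1a had 31 against 73 reads (0.417, 0.265 to 0.643). Sim1, named here after its values were seen, had 23 against 21 (1.08, 0.569 to 2.04).

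Glial and immune cells outside the lineage gave mixed values. Of the 10 astroglia genes that passed, 4 intervals lay below 1 and 2 above, with a median of -0.08; the lipid carrier Clu stood at 0.642 (0.578 to 0.712) and the receptor Fgfr3 at 1.47 (1.36 to 1.58). Of 7 microglia genes, 4 lay below and none above, with a median of -0.48, and the purine receptor P2ry12 stood at 0.497 (0.341 to 0.716). Low ratios like that of Pdgfra were thus also seen outside the oligodendrocyte lineage. Choroid plexus genes had 4 of 5 intervals below 1 and a median of -4.02, with a summed level of 24.2 CPM against 703.6 CPM.

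**Figure D4:**
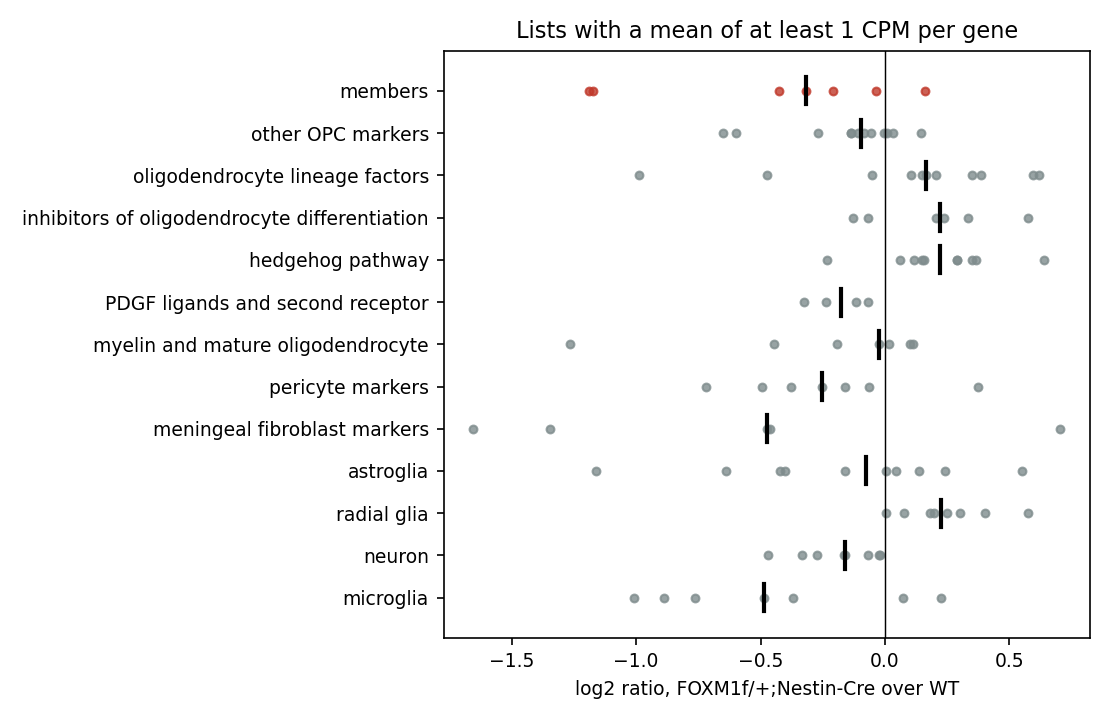
Log2 ratio, transgenic over WT (horizontal axis), of each gene that averages 1 CPM or more in 13 lists (rows), with the list median as a black bar; members are in red. Members reach from -1.19 to 0.16 with a median of -0.32, while the hedgehog, radial glia and lineage factor medians lie between 0.17 and 0.23.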

How the data were processed

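Libraries were made from Trizol-extracted total RNA of brain, per the labels' protocols. The submitters' processing notes name HTSeq 0.6.0, TopHat2 2.0.12, Bowtie2 2.2.3 and the build mm9. The positions in the table are those of GRCm38: 91.6% of the 20388 genes shared with GENCODE M21 had its chromosome, start and end. The series' design text speaks of triplicates, against 4 samples listed.

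The authors deposited raw read counts and normalized values, which are CPM with a count of 0 entered as 0.5 reads. Their fold column is the ratio of the CPM columns, and their log2 column its logarithm, per the file headers and values. The deposited p-values compare 1 column with 1 column by a test not given in the sources used here, and none is printed. The totals behind the CPM were 17859653 (transgenic) and 17547268 reads, so 1 read is 0.0560 and 0.0570 CPM.

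Members, lists and comparisons were chosen with earlier results of these data known. Ratios of CPM were given an exact conditional (Clopper-Pearson) 95% interval of the ratio of 2 Poisson rates, and pairs of members an exact conditional interval of the odds ratio. A gene was counted as lower or higher at 2-fold with a mean of at least 1 CPM, or by an interval wholly on one side of 1. No test across samples was possible. Some listed genes are not reported here. All members are named; from each other list up to 4 genes whose interval excludes 1 were taken by size relative to counting error, not all of which are printed, or the 2 of highest mean CPM where no interval did. RPKM was computed from merged GENCODE M21 exons. On data simulated for this comparison (14557 genes) with counting error alone, 95.5% of intervals held the true ratio. Python 3.11.15, NumPy 2.4.6, pandas 2.3.3, SciPy 1.17.1, Matplotlib 3.10.9, R 4.3.3 and edgeR 4.0.16 (scaling factors only) were used. Alternatives were TMM or RLE scaling, reduced library totals, other expression minimums and a fold of 1.5.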

Additional observations from a re-analysis of the deposited data

How the results depend on the processing

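No paired analysis was possible because the table holds 1 column per genotype, and for the same reason no replicate could be left out. Scaling was repeated with TMM or RLE factors, or with totals without Y-linked genes, Xist, Ttr, globins and mitochondrial genes. The direction of all 8 member ratios was kept, and each stayed within its counting interval. Each such scaling moves every log2 ratio by 1 common amount, and the median of all tested genes lay between -0.01 and 0.02. Shifts so small beside the intervals could not have moved a member out of its interval. Pdgfra ranged from -1.19 to -1.16 on the log2 scale and Olig2 from -0.04 to -0.01. The count of members at least 2-fold lower was 2, and that of intervals below 1 was 3, under both scalings, without a minimum and with at least 1 CPM in both libraries; at 1.5-fold it was also 2. A mean of at least 10 CPM left 2 members, Olig1 and Olig2, with 0 at least 2-fold lower and 1 interval below 1, since Pdgfra and Gpr17 lie under that minimum. In the range of 1 to 10 CPM, chosen after seeing the data, 2 of 5 members' intervals lay below 1, against 663 of the 4419 genes in that range. The members' median lay between -0.37 and -0.29, without Bcas1 (an alternative also chosen after seeing the data) at -0.37. Among 17 other lists, the fibroblast median was -1.35 without an expression minimum. The choroid plexus median was -5.52 with a mean of at least 10 CPM. All other shifts were smaller than the typical counting error of a gene in the same list. Within that error, the astroglia median went from -0.08 to 0.004 with at least 1 CPM in both libraries. That of the term oligodendrocyte development went from 0.04 to -0.03 without a minimum. Depth limits Nkx2-2 and Bcas1 most, and the spread between animals was not measured.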
